A study of Homo sapiens with 6 samples.

Results

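The 10 genes described here encode the core of the human small RNA pathway: DROSHA and DGCR8, which make up the microprocessor, the exporter XPO5, the dicing proteins DICER1 and TARBP2, the Argonautes AGO1, AGO2, AGO3 and AGO4, and the silencing adaptor TNRC6A. They were found by the RefSeq accession that the array design gives for each probe. All 10 were on the array, among 19699 genes that could be named, through 14 probes. All 14 probes could be tested, and 13 of them were well above background on all 6 arrays. The exception was the single AGO4 probe.

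A primary microRNA is folded into a hairpin, cut out in the nucleus by the microprocessor, carried to the cytoplasm by exportin 5 and cut again by Dicer. An Argonaute takes up 1 strand and, through GW182 proteins such as TNRC6A, brings in the enzymes that shorten and decap the paired mRNA. A short hairpin RNA made from a vector joins this route at export and dicing, without the microprocessor, and the core genes of the route were compared here between cells that carry such vectors.

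RPMI-8402, spelled RMPI8402 in part of the labels, is an established cell line from a human T-lineage acute leukaemia. It was transduced with a lentivirus for control, shGATA3 or shTCF1. TCF1 is the protein encoded by TCF7, and both targets are transcription factors of early T-cell development. Cells that carried the EGFP marker were sorted 48 h after transduction, and total RNA was hybridised to 1-colour Agilent arrays, with 2 arrays per group and 6 in all. According to the study's methods the control vector carried a control hairpin in the same EGFP backbone. The control arrays are therefore of hairpin-bearing cells too, and no array measured cells without a hairpin. Below, the term hairpin groups stands for shGATA3 and shTCF1 only, whose hairpins were directed at a gene. Each targeted group was profiled with 1 hairpin as far as the labels say, and the methods name no vector for the TCF7 hairpin. The study describes the 2 arrays of a group as independent experiments, though the labels do not say how they were separated.

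Levels are given as log2 intensity after variance-stabilising normalization, and a difference of 1 is a doubling. A gene was represented by its brightest tested probe and was called at an adjusted p below 0.05 in limma across 31131 probes. With 2 arrays against 2, a two-sided exact permutation test of a single value cannot go below 0.333, so every p-value below comes from the limma fit.

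On the arrays labelled shTCF1, TCF7 was lower than on the control arrays on both of its probes, by -1.28 and -1.43 on the log2 scale (limma adjusted p = 0.000463 and 0.00081). On the arrays labelled shGATA3, GATA3 was at 9.52 and 9.62, on either side of the control values of 9.57 and 9.61, with a difference of -0.02 (limma adjusted p = 0.919). A lower GATA3 level was not seen there on A_33_P3360341, the only GATA3 probe read. The name shGATA3 below stands for the arrays labelled so. TCF7 was higher there, by 0.36 (limma adjusted p = 0.0336). The T-lineage markers CD7, CD3D, CD3E, CD5, CD2, TAL1, LMO1 and PTCRA stood well above background on each of the 6 arrays. The 75th percentile of the deposited intensity was 269.6 and 287.4 on the control arrays and between 165.3 and 178.8 on the other 4. All 6 arrays carry the same slide and scan number, but the control arrays had 1 value of the first position index and the other 4 arrays the other value, so array position and control cannot be told apart, nor can fewer cells of a kind and less RNA per cell in these bulk samples.

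Against control, 6 of the 10 genes were called in shTCF1, where 23.1% of all genes tested were called: DGCR8 was higher, and DROSHA, TARBP2, AGO2, AGO3 and AGO4 were lower. In shGATA3, where 12.5% of all genes were called, 3 of the 10 were: DGCR8 and AGO1 were higher and AGO4 lower. The AGO4 probe passed the filter on dim probes through the control arrays alone, which favours a lower value in the hairpin groups, so its calls carry less than the others. With only probes well above background on all 6 arrays, which leaves AGO4 out, the calls were 5 in shTCF1, 2 in shGATA3 and 2 between the hairpin groups. No fitted difference of the 10 genes reached 1 log2 unit on this scale in either comparison, and both use the same 2 control arrays.

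**Figure D1:**
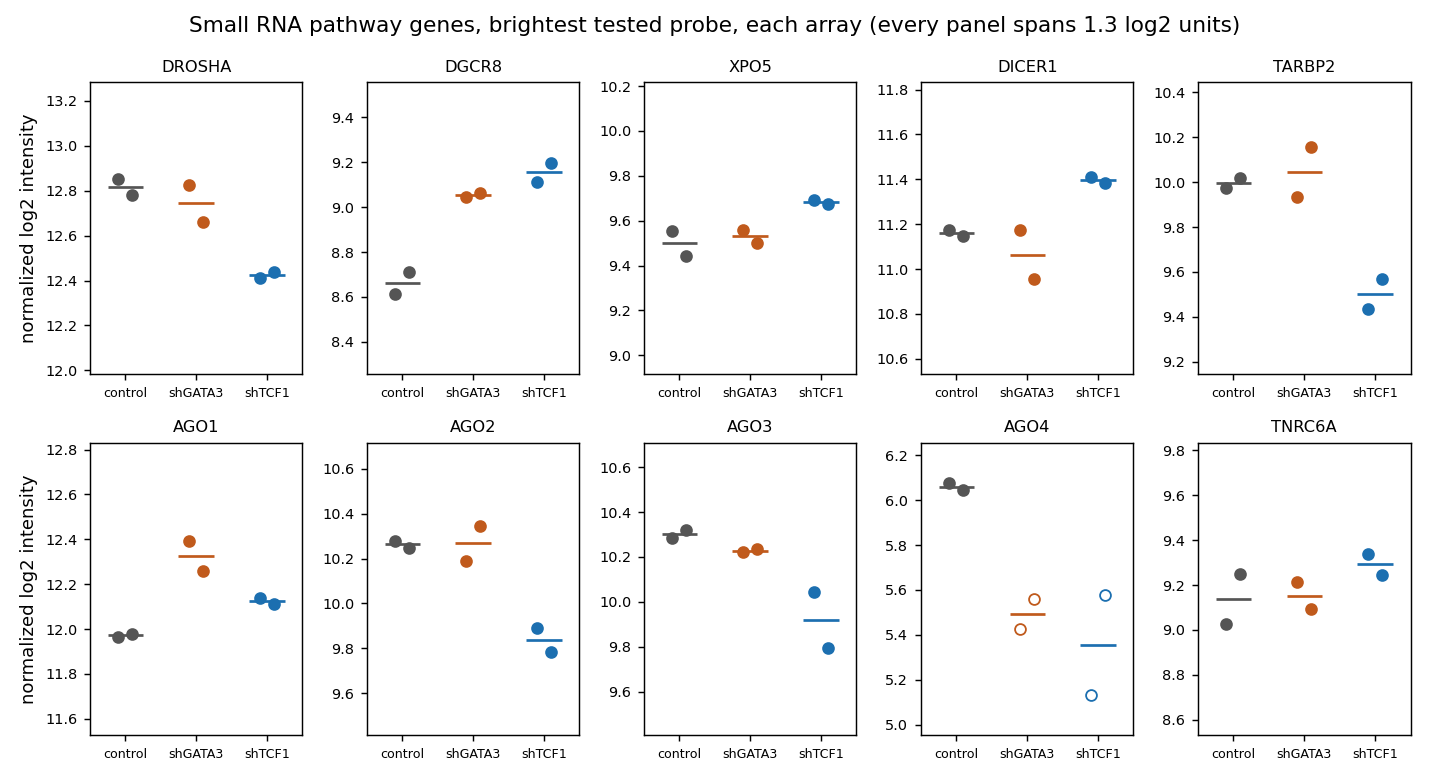
Normalized log2 intensity of the brightest tested probe of each of the 10 genes on every array, with a line at each group's mean of 2 arrays; open circles mark groups in which the probe was well above background on neither array. DGCR8 lay higher than control in both hairpin groups, from 9.05 to 9.20 against 8.61 and 8.71, and both shTCF1 arrays lay below the other 4 for DROSHA, TARBP2 and AGO2.

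In the microprocessor, DROSHA is the RNase III enzyme that cuts the primary hairpin. Its probe A_23_P133596 read 12.85 and 12.78 in control, 12.83 and 12.66 in shGATA3, and 12.41 and 12.44 in shTCF1. Both shTCF1 arrays lay below all other arrays, and the shGATA3 and control values overlapped. DROSHA was lower in shTCF1 by -0.39 ± 0.09 (SE), 1.31-fold (limma adjusted p = 0.0253), and its difference in shGATA3 was -0.07 (limma adjusted p = 0.644). The direct difference between the hairpin groups was 0.32, with shGATA3 higher (limma adjusted p = 0.0804). The shTCF1 call was lost when control replicate 1, control replicate 2, shTCF1 replicate 1 or shTCF1 replicate 2 was left out, at adjusted p from 0.08 to 0.14.

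DGCR8 is the RNA-binding partner that recognises the hairpin and holds DROSHA on it. Its probe A_23_P211355 read 8.61 and 8.71 in control, 9.05 and 9.06 in shGATA3, and 9.11 and 9.20 in shTCF1. Control was the lowest group without overlap, and the 2 hairpin groups lay close to each other. DGCR8 was higher by 0.39 ± 0.09 (SE) in shGATA3, 1.31-fold (limma adjusted p = 0.0318), and by 0.49 ± 0.09 (SE) in shTCF1, 1.41-fold (limma adjusted p = 0.00949). The difference between the hairpin groups was -0.10, with a 95% interval from -0.31 to 0.11 (limma adjusted p = 0.52). In shTCF1 the call was lost only without control replicate 1 (adjusted p = 0.0701) among the 6 arrays left out in turn. In shGATA3 it was lost without either control array or either shGATA3 array, at adjusted p from 0.0627 to 0.197.

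The DGCR8 transcript holds hairpins of its own that the microprocessor is known to cut, and these give rise to miR-3618 and miR-1306. Their mature sequences are shown because they lie in the member transcript that was higher in both comparisons. They are taken from RefSeq (GRCh38.p14, + strand of chromosome 22, within the span chr22:20085797-20086129), with the seed, bases 2 to 8, in capitals. The microRNAs themselves were not measured on these arrays.
hsa-miR-3618: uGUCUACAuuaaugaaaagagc
hsa-miR-1306-5p: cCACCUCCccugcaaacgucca
hsa-miR-1306-3p: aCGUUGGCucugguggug
The 3 seeds differ from one another.

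XPO5 encodes exportin 5, the carrier of pre-microRNAs and of short hairpin RNAs out of the nucleus. Its brightest probe, A_23_P256855, read 9.56 and 9.44 in control, 9.56 and 9.50 in shGATA3, and 9.69 and 9.67 in shTCF1. The 2 shTCF1 arrays were the highest, but the difference of 0.18 was not called (limma adjusted p = 0.174, 95% interval -0.02 to 0.39), and that of shGATA3 was 0.03 (limma adjusted p = 0.85). The other 2 XPO5 probes gave the opposite sign.

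Probe A_33_P3228366 read 9.21 and 9.05 in control, 8.78 and 8.83 in shGATA3, and 8.62 and 8.65 in shTCF1. All 4 hairpin-group values lay below both control values, with differences of -0.32 in shGATA3 (limma adjusted p = 0.0638) and -0.50 in shTCF1 (limma adjusted p = 0.0105). Probe A_33_P3228375 differed by -0.26 (limma adjusted p = 0.267) and -0.34 (limma adjusted p = 0.12). The probes of XPO5 therefore disagree, and no direction is given for the gene.

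DICER1 encodes the RNase III enzyme that cuts pre-microRNAs and short hairpins in the cytoplasm. Probe A_33_P3212490 read 11.17 and 11.15 in control, 11.17 and 10.95 in shGATA3, and 11.41 and 11.38 in shTCF1. The shTCF1 arrays were the 2 highest, and shGATA3 overlapped control. Neither difference from control was called: 0.24 in shTCF1 (limma adjusted p = 0.128, 95% interval 0.00 to 0.47) and -0.10 in shGATA3 (limma adjusted p = 0.56). Between the hairpin groups the difference was -0.33, with shTCF1 higher (limma adjusted p = 0.0835).

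TARBP2 encodes TRBP, the double-stranded RNA-binding partner of Dicer. Probe A_23_P87603 read 9.97 and 10.02 in control, 9.93 and 10.16 in shGATA3, and 9.43 and 9.57 in shTCF1. Both shTCF1 arrays lay below the other 4, and the shGATA3 arrays fell on either side of control. TARBP2 was lower in shTCF1 by -0.50 ± 0.11 (SE), 1.41-fold (limma adjusted p = 0.0176), with a difference of 0.05 in shGATA3 (limma adjusted p = 0.807). It was also called in the direct comparison of the hairpin groups, 0.54 higher in shGATA3 (limma adjusted p = 0.0222). The call against control was lost when either control array or shTCF1 replicate 1 was left out, at adjusted p from 0.0701 to 0.0911, and the direct one without shGATA3 replicate 2 or either shTCF1 array, at adjusted p from 0.0609 to 0.111. DICER1 and TARBP2, which act together, thus had differences of opposite sign in shTCF1, of which that of TARBP2 passed the test. PRKRA, the related Dicer partner PACT, differed by 0.01 in shGATA3 and -0.04 in shTCF1 (limma adjusted p = 0.941 and 0.805).

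**Figure D2:**
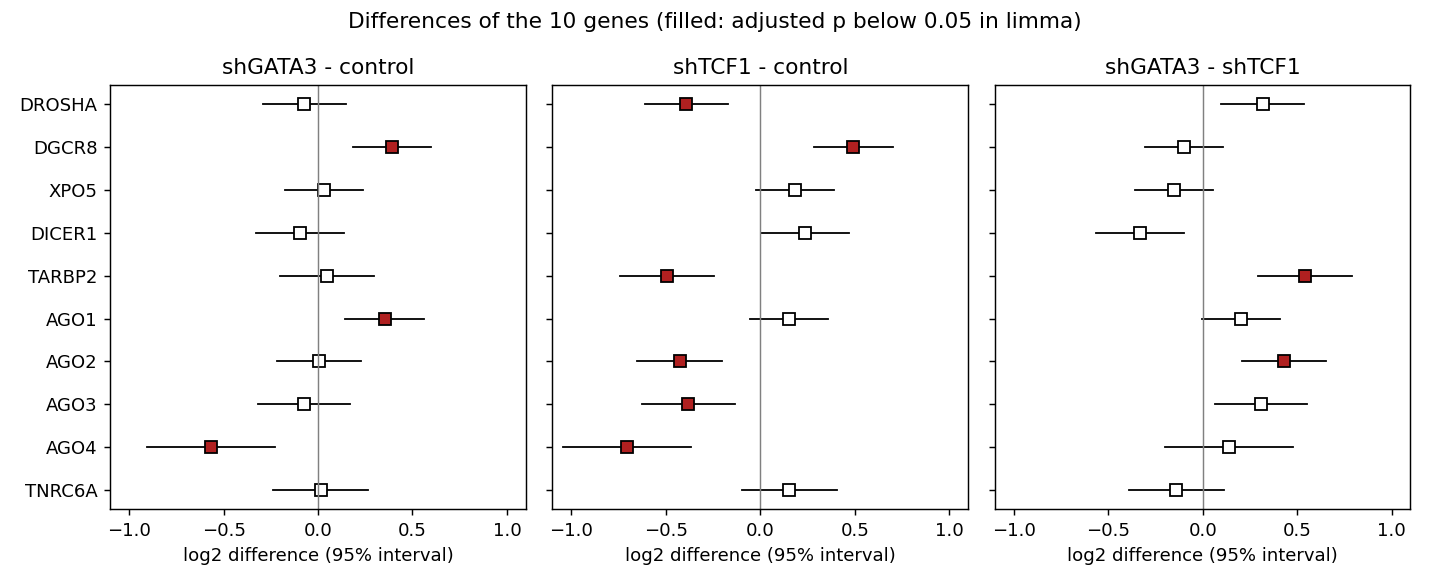
Log2 difference of each gene's brightest probe in the 3 comparisons, with the 95% interval from limma; filled squares have an adjusted p below 0.05. DGCR8 was called above control in both hairpin groups, and TARBP2 and AGO2 were the 2 genes called between the hairpin groups; the fitted AGO4 values rest on signals not well above background in both hairpin groups.

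Of the Argonautes, AGO1 was the one called higher. Its brightest probe, A_33_P3402116, read 11.97 and 11.98 in control, 12.39 and 12.26 in shGATA3, and 12.14 and 12.11 in shTCF1. The 3 groups did not overlap, with shGATA3 highest and control lowest. AGO1 was higher by 0.35 ± 0.09 (SE) in shGATA3, 1.28-fold (limma adjusted p = 0.0452), and differed by 0.15 in shTCF1 (limma adjusted p = 0.254). The second probe, A_33_P3380587, gave 0.31 and 0.26 (limma adjusted p = 0.0738 and 0.0831). The shGATA3 call was lost with each of the 6 arrays left out in turn, at adjusted p from 0.0645 to 0.207.

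AGO2 is the Argonaute that slices a fully paired target, the activity on which hairpin-directed knockdown largely relies. Probe A_23_P112159 read 10.28 and 10.25 in control, 10.19 and 10.35 in shGATA3, and 9.89 and 9.78 in shTCF1. The shTCF1 arrays lay below the other 4, and shGATA3 spanned the control values. AGO2 was lower in shTCF1 by -0.43 ± 0.10 (SE), 1.34-fold (limma adjusted p = 0.0201), and its difference in shGATA3 was 0.00 with a 95% interval from -0.22 to 0.23. Between the hairpin groups it was 0.43 higher in shGATA3 (limma adjusted p = 0.034). The shTCF1 call was lost without either control array or either shTCF1 array, at adjusted p from 0.0559 to 0.105. The direct call was kept only without shGATA3 replicate 1, and was lost at adjusted p from 0.0597 to 0.144 without any one of the other 5 arrays.

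AGO3 was measured by probes A_23_P97021 and A_33_P3244882. The first read 10.29 and 10.32 in control, 10.22 and 10.24 in shGATA3, and 10.05 and 9.80 in shTCF1. The second read 10.35 and 10.25, then 9.82 and 10.00, then 9.69 and 9.42. On both probes control was highest and shTCF1 lowest, without overlap. In shTCF1 AGO3 was lower by -0.38 ± 0.10 (SE) on the first probe (limma adjusted p = 0.0386) and by -0.74 ± 0.12 (SE) on the second (limma adjusted p = 0.00666), and in shGATA3 the differences were -0.07 and -0.39 (limma adjusted p = 0.68 and 0.0817). The call on the first probe was lost when either control array or shTCF1 replicate 2 was left out, at adjusted p from 0.131 to 0.155.

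AGO4 was measured by A_23_P23171, which was well above background on both control arrays and on no other. The deposited intensities were 45.2 and 47.7 in control, 10.3 and 14.4 in shGATA3, and 4.51 and 12.4 in shTCF1. The hairpin groups had no signal well above background, so a replacement value was used on each of their arrays. This was the lowest signal that counted as well above background on that array, or the measured value where that was higher. On that basis and this scale, AGO4 was at least 1.46-fold higher in control than in shGATA3 and at least 1.33-fold higher than in shTCF1. These are lower limits, and their order follows the mean replacement values, 5.51 in shGATA3 and 5.64 in shTCF1. The fits to the measured values had limma adjusted p = 0.0481 and 0.0152. The first was lost without either control or either shGATA3 array, at adjusted p from 0.117 to 0.171, and the second without either control array or shTCF1 replicate 1, at adjusted p from 0.05 to 0.0628. The size of the AGO4 difference moved with the scale: in shGATA3 and shTCF1 it was -0.57 and -0.70 as fitted, -1.27 and -1.94 with 75th percentile scaling (limma adjusted p = 0.184 and 0.0564), and -0.24 and -0.29 after normexp background correction (limma adjusted p = 0.0855 and 0.0313).

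AGO4, AGO1 and AGO3 are neighbours in that order on chromosome 1 (RefSeq, GRCh38.p14). Against control, they were lower, higher and not called in shGATA3, and lower, not called and lower in shTCF1. The AGO4 probe passed the filter through the control arrays alone, which favours a lower value, so its calls do not weigh equally with the others.

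TNRC6A encodes the GW182 protein that links an Argonaute to the deadenylases. Probe A_23_P349310 read 9.03 and 9.25 in control, 9.21 and 9.09 in shGATA3, and 9.34 and 9.25 in shTCF1. Its control arrays were further apart than its group means, and neither difference was called: 0.01 in shGATA3 (limma adjusted p = 0.943, 95% interval -0.24 to 0.27) and 0.15 in shTCF1 (limma adjusted p = 0.33, 95% interval -0.10 to 0.41). The paralogues TNRC6B and TNRC6C differed by 0.08 and 0.13 in shGATA3 and by 0.07 and 0.13 in shTCF1, with limma adjusted p from 0.365 to 0.621. The second TNRC6C probe, A_33_P3302423, gave -0.34 and -0.26 (limma adjusted p = 0.149 and 0.204).

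**Figure D3:**
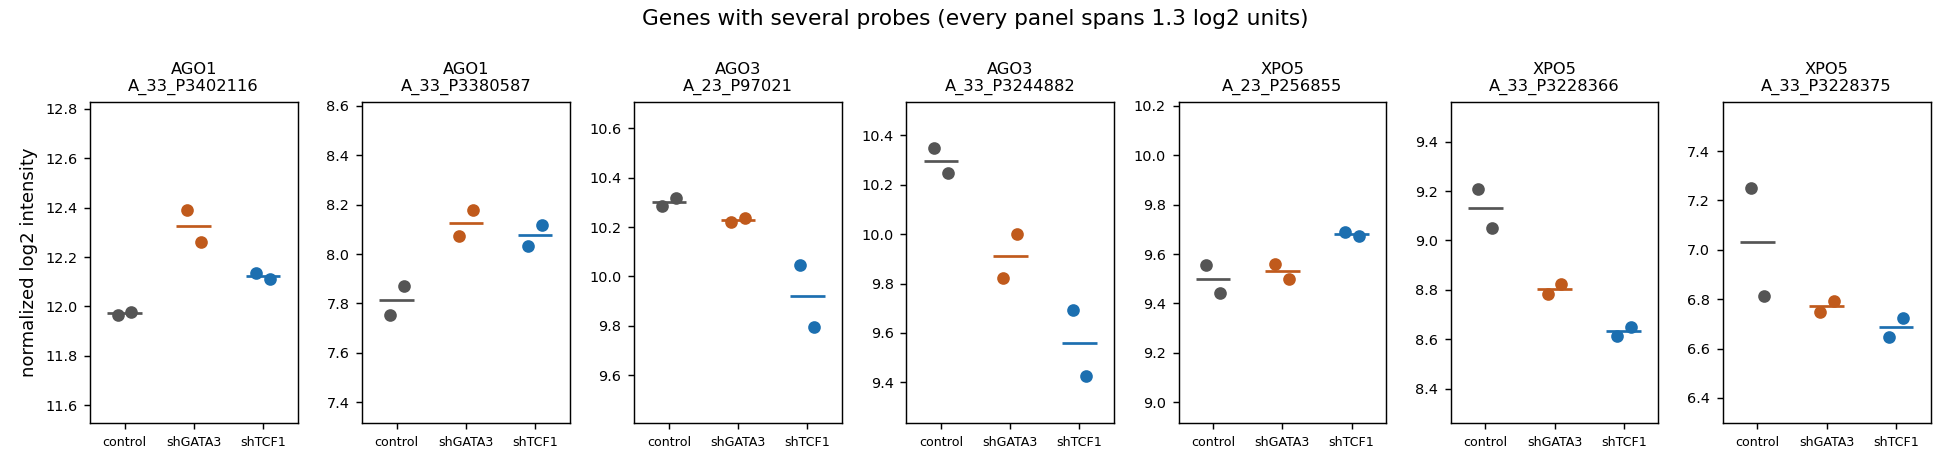
Normalized log2 intensity by array for AGO1, AGO3 and XPO5, the genes with more than 1 probe, with the brightest probe of each gene first and a line at each group's mean. The probes of AGO1 and of AGO3 kept the same order of control against the hairpin groups, while the first XPO5 probe had positive differences from control where the other 2 had negative ones.

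Counted over the 10 genes, shGATA3 against control gave 3 calls, 2 higher and 1 lower, where 12.5% of the 14488 genes tested were called in this comparison, 5.7% higher and 6.84% lower. The groups did not overlap for 4 of the 10 genes, against 62.9% of all genes. The median difference of the 10 genes was 0.01 and that of all genes -0.01.

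In shTCF1 against control there were 6 calls, 1 higher and 5 lower, where 23.1% of all genes were called, 10% higher and 13.1% lower. The groups did not overlap for 9 of the 10 genes, against 72% of all genes, and the medians were -0.12 for the 10 genes and -0.02 for all genes. Between shGATA3 and shTCF1 there were 2 calls, both higher in shGATA3, where 10.3% of all genes were called, 5.87% higher and 4.48% lower. There the groups did not overlap for 9 of the 10 genes, against 56.3%, and the medians were 0.17 and 0.00.

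These counts depend on how the arrays are put on one scale. With each array scaled to its 75th percentile, limma calls among the 10 genes fell to 0 in shGATA3, 1 in shTCF1 (DGCR8) and 0 between them, with 3 and 5 genes at an unadjusted p below 0.05 where the count was 0. With quantile normalization they fell to 0, 3 and 0, with 2 and 5 genes at an unadjusted p below 0.05 where the count was 0. With the normalization estimated on all probes, dim ones included, they were 0, 5 and 1, with 2 genes at an unadjusted p below 0.05 in shGATA3. The signs of the 6 genes called in shTCF1 were the same in all of these.

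**Figure D4:**
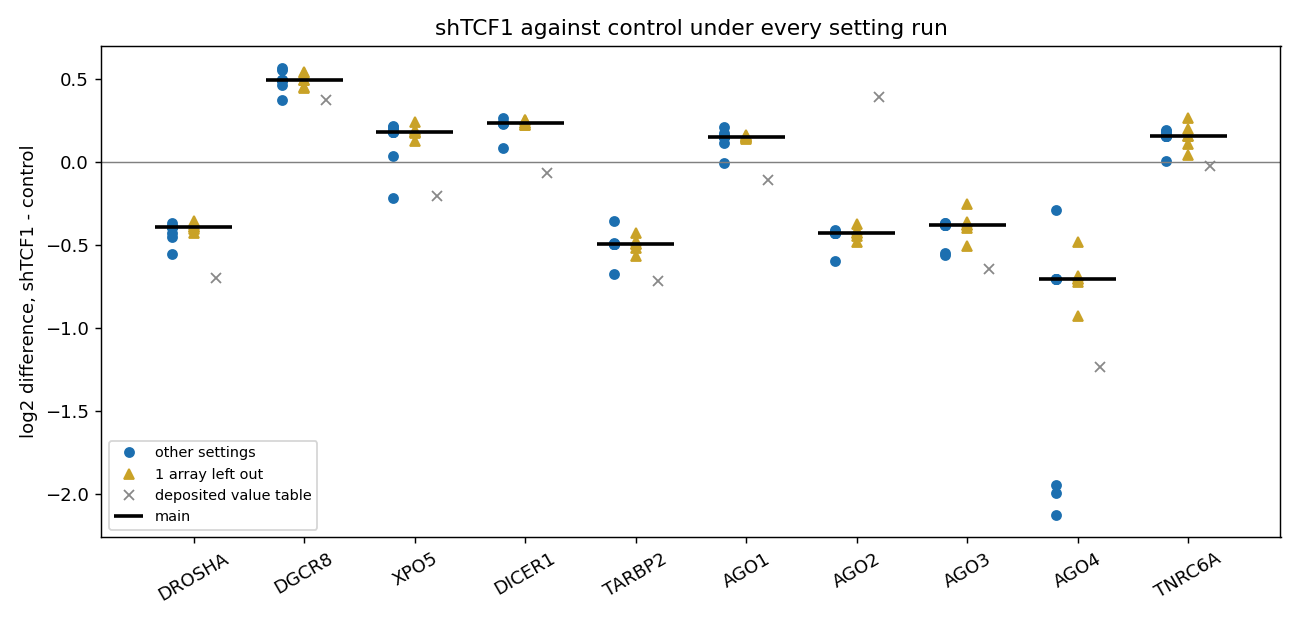
Log2 difference between shTCF1 and control for each of the 10 genes under every setting run; the black line is the reported value, triangles leave out 1 array each and crosses come from the deposited value table. DROSHA, TARBP2, AGO3 and AGO4 stayed below 0 and DGCR8 above 0 throughout, whereas AGO2 was above 0 in the deposited value table.

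The pathway beyond these genes was followed in 89 further genes in 8 lists, of which 84 were on the array and 78 could be tested. In shGATA3 11 of the 78 were called, 6 higher and 5 lower, in shTCF1 14, 6 higher and 8 lower, and between the hairpin groups 6, 4 higher in shGATA3 and 2 lower. Over all genes tested 12.5%, 23.1% and 10.3% were called in these comparisons, and the counts of the 78 genes lie near or below those shares. With only probes well above background on all 6 arrays, the counts were 12, 15 and 6. Their median differences were 0.06, 0.02 and 0.03.

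None of the 7 microprocessor partners was called in any comparison by limma. Of all genes, 12.5%, 23.1% and 10.3% were called in shGATA3, in shTCF1 and between them. Among the 7 partners, 0, 1 and 1 had an unadjusted p below 0.05 in these comparisons. Of these partners, KHSRP differed between shGATA3 and shTCF1 by -0.65 on its brightest probe (limma adjusted p = 0.198). That probe read 14.68 and 13.63 in shGATA3 and 14.82 and 14.80 in shTCF1, so the difference rests largely on shGATA3 replicate 2. The second KHSRP probe, A_24_P134235, named here after its values were seen, gave 0.43 (limma adjusted p = 0.0384), so the KHSRP probes differ in sign. The helicases DDX5 and DDX17, which accompany the microprocessor, differed by 0.04 and 0.24 in shGATA3 and by 0.04 and 0.20 in shTCF1, with adjusted p from 0.203 to 0.818. Among 5 tested partners of export and dicing, RAN, the GTPase that powers export, was not called, with differences of 0.10 and -0.15 on its brightest probe (adjusted p = 0.475 and 0.258). The second RAN probe, A_24_P47547, differed by -0.25 and -0.56 (limma adjusted p = 0.163 and 0.0107). The RAN probes thus had opposite signs in shGATA3, while in shTCF1 both were negative and only the second was called. SND1, a nuclease found with silencing complexes, was 0.33 higher in shTCF1 (adjusted p = 0.0334).

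Small RNA loading into Argonautes uses the HSP90 chaperone machine. Of the 7 genes listed with this step, HSP90AB1 read 13.08 and 13.10 in control against 12.65 to 12.77 on the other 4 arrays. AHSA1, which stimulates the HSP90 ATPase, read 12.00 and 12.01 against 11.47 to 11.71. Neither gene overlapped with control in either hairpin group, which also held for 62.9% of all genes in shGATA3 and 72% in shTCF1. Of the 7 genes, limma called 2 in shGATA3 and 3 in shTCF1, where 12.5% and 23.1% of all genes were called. HSP90AB1 was lower by -0.41 in shGATA3 and -0.35 in shTCF1 (limma adjusted p = 0.0248 and 0.0265), and AHSA1 by -0.53 and -0.37 (limma adjusted p = 0.0121 and 0.0262). FKBP4, a co-chaperone, was 0.42 higher in shTCF1 on its brightest probe (limma adjusted p = 0.0276) and was called 0.46 lower in shGATA3 than in shTCF1 (difference -0.46, limma adjusted p = 0.0344), but its second probe gave -0.14 against control in shTCF1 (limma adjusted p = 0.485). HSP90AA1 and HSPA8 were not called.

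Of the PIWI genes, which serve the germline small RNA pathway, PIWIL1 and PIWIL3 were not tested and PIWIL4 was not called. PIWIL2 was well above background on the control arrays alone. With the same replacement as for AGO4 it was at least 1.2-fold higher there than in shGATA3 on this scale (limma adjusted p of the fit to the measured values = 0.00721). It passed the filter through the control arrays alone. It also counts among the 6 calls between the hairpin groups, where it was well above background in neither, so that this call rests on background signals and says nothing about its level.

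Of 23 silencing effectors, limma called none in shGATA3, where 4 had an unadjusted p below 0.05, and 3 were lower in shTCF1, against 12.5% and 23.1% of all genes called in the 2 comparisons and 13.1% called lower in shTCF1. These were the deadenylase subunits CNOT7 and CNOT8 of the CCR4-NOT complex, by -0.41 and -0.45 (limma adjusted p = 0.03 and 0.0279), and LIMD1, a LIM-domain protein that binds Argonautes, by -0.45 (limma adjusted p = 0.0114). LIMD1 read 11.01 and 11.09 in control, 11.19 and 11.13 in shGATA3 and 10.60 on both shTCF1 arrays, and was 0.56 higher in shGATA3 than in shTCF1 (limma adjusted p = 0.00822). That call was kept with each of the 6 arrays left out in turn. PAN3 of the same list was not called on its brightest probe, at -0.13 in shGATA3 and -0.22 in shTCF1. Its second probe, A_33_P3259403, named here after its values were seen, was lower by -0.47 and -0.83 (limma adjusted p = 0.0229 and 0.00223).

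Of 9 tested genes of small RNA tailing and decay, XRN2, a nuclear 5′ to 3′ exonuclease, was called in shGATA3 and in shTCF1. Of all genes, 12.5% and 23.1% were called in these comparisons. XRN2 read 9.78 and 9.77 in control, 9.40 and 9.28 in shGATA3, and 9.06 and 9.08 in shTCF1. The 3 groups did not overlap, with differences of -0.43 in shGATA3 and -0.71 in shTCF1 (limma adjusted p = 0.0227 and 0.00284). The shTCF1 call was kept with each of the 6 arrays left out. LIN28A, which blocks let-7 maturation, was well above background on no array, and its paralogue LIN28B was not called.

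Long double-stranded RNA can set off an interferon response, and 19 genes of that response were tested. In shGATA3 5 of them were called, all higher, among them MX1, IRF7, IFIT2 and IFIT3, where 5.7% of all genes were called higher. The median of the list was 0.26 in shGATA3, against -0.01 for all genes, and 0.06 in shTCF1, against -0.02. MX1, an antiviral GTPase, read 10.23 and 10.19 in control, 10.92 and 10.93 in shGATA3, and 10.49 and 10.68 in shTCF1, without overlap between groups. It was higher by 0.72 in shGATA3 (limma adjusted p = 0.00522) and by 0.37 in shTCF1 (limma adjusted p = 0.0314), and the first call was kept with each of the 6 arrays left out. IRF7, a transcription factor of the interferon response, was 0.55 higher in shGATA3 (limma adjusted p = 0.0221).

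In shTCF1 3 genes of the same list were called, 2 higher and 1 lower, against 10% and 13.1% of all genes. IFI6, an interferon-induced gene, was 0.57 higher (limma adjusted p = 0.00987), MX1 was higher as given, and TLR3, an endosomal receptor for double-stranded RNA, was lower by -0.42 (limma adjusted p = 0.0277). Between the hairpin groups ISG15, a ubiquitin-like protein, was 0.72 higher in shGATA3 (limma adjusted p = 0.0138). The cytosolic sensors RIGI and IFIH1 were not called, at 0.36 and 0.12 in shGATA3 and 0.09 and 0.01 in shTCF1. EIF2AK2, the kinase PKR, was not called on its brightest probe, at -0.15 and -0.05, but its second probe, named here after its values were seen, was lower by -0.89 and -0.90 (limma adjusted p = 0.00372 and 0.00255). Named in the same way, MAVS was not called on its brightest probe, at 0.30 and 0.06. Another MAVS probe, A_33_P3244026, was higher by 0.42 and 0.32 (limma adjusted p = 0.0229 and 0.0337). The second IFIT2 probe, A_24_P304071, was not called, at 0.36 and -0.07 (limma adjusted p = 0.19 and 0.771).

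The widest differences of the 78 genes were those of MIR17HG, the host transcript of the miR-17-92 cluster. It read 10.52 and 10.12 in control, 9.02 and 9.36 in shGATA3, and 8.45 and 8.28 in shTCF1. The 3 groups did not overlap. MIR17HG was lower by -1.12 ± 0.17 (SE) in shGATA3 and by -1.95 ± 0.17 (SE) in shTCF1 (limma adjusted p = 0.00728 and 0.000954), and these calls were kept with each of the 6 arrays left out. Between the hairpin groups it was 0.83 higher in shGATA3 (limma adjusted p = 0.0234), a call lost without shGATA3 replicate 2 or either shTCF1 array, at adjusted p from 0.0716 to 0.118.

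The 6 mature microRNAs of the main arms of this cluster are shown as the products carried by the transcript with these differences. They lie within chr13:91350605-91351391 on the + strand, and all 6 were found in RefSeq (GRCh38.p14). The seeds, bases 2 to 8, are in capitals, and the list is in order of shared seed.
hsa-miR-17-5p: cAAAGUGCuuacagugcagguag
hsa-miR-20a-5p: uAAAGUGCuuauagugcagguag
hsa-miR-18a-5p: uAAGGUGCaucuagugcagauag
hsa-miR-19a-3p: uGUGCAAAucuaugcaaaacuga
hsa-miR-19b-3p: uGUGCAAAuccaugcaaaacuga
hsa-miR-92a-3p: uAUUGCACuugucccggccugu
The pair miR-17-5p and miR-20a-5p shares 1 seed, and so does the pair miR-19a-3p and miR-19b-3p. The arrays read the host transcript, and the mature microRNAs were not measured.

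Of the other 5 tested host transcripts, MIR22HG was called higher in shTCF1 and MIR503HG in both comparisons with control. Of all genes, 5.7% were called higher in shGATA3 and 10% in shTCF1. In shGATA3 MIR22HG was not called, at 0.31 (limma adjusted p = 0.0613). MIR22HG read 8.78 and 8.75 in control, 9.05 and 9.09 in shGATA3, and 9.38 and 9.28 in shTCF1, and was 0.57 higher in shTCF1 (limma adjusted p = 0.00535), a call kept with each of the 6 arrays left out. MIR503HG was higher by 0.50 in shGATA3 and 0.43 in shTCF1 (limma adjusted p = 0.0437 and 0.0442). MIR155HG, MIR600HG and MIRLET7BHG were not called, at -0.29, -0.25 and 0.38 in shGATA3 and -0.13, -0.08 and 0.01 in shTCF1.

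**Figure D5:**
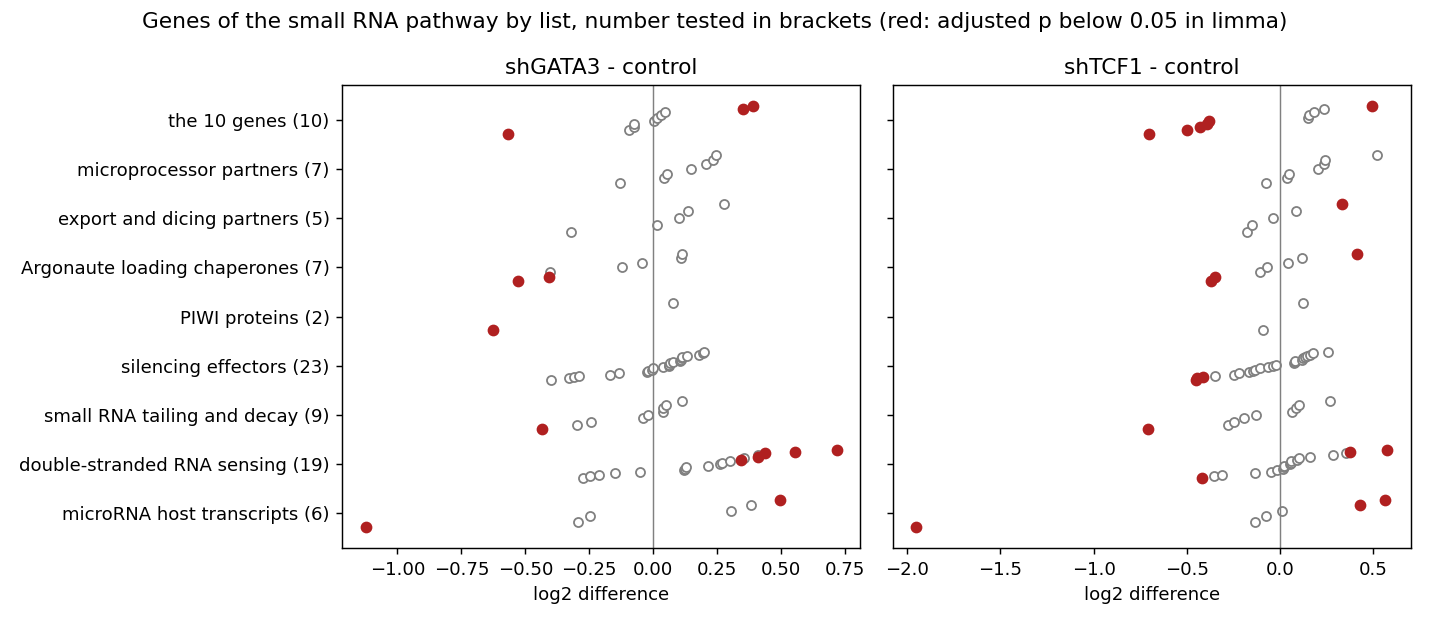
Log2 difference from control of every tested gene of the 10 and of the 8 further lists, with shGATA3 on the left and shTCF1 on the right on axes of different range; red points have a limma adjusted p below 0.05. The 5 red points of double-stranded RNA sensing in shGATA3 all lie above 0, and the point farthest to the left in both panels is MIR17HG.

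Apart from the calls named as kept, every call among the 78 genes was lost when at least 1 array was left out. Left out one at a time, control replicate 1 ended 9 of 11 calls in shGATA3 and 11 of 14 in shTCF1, and control replicate 2 ended 8 and 10.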

How the data were processed

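The authors deposited Agilent Feature Extraction scanner files, 1 per array. The deposited gProcessedSignal is a background-subtracted spot intensity on a linear scale. Per the file headers the software version was 10.7.1.1, while the submitters' processing notes give 9.1. The deposited value table, in log2 units by its values, was used as an alternative only. Its columns for control replicate 1 and shGATA3 replicate 1 followed the second array of their group more closely (r = 0.996 for both). The column of shGATA3 replicate 2 followed the first array of its group slightly more closely (r = 0.987 against 0.986 with its own). That of control replicate 2 followed no array closely (r = 0.759).

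Of 57176 probes, 71 were removed for outlier flags, and 31131 were tested, those that some group had well above background on its 2 arrays. VSN and limma are the tools the methods state. VSN was re-implemented in R 4.3.3 (trimmed fit of 0.9, 7 iterations, 5 strata) and its parameters were estimated on the tested probes. That choice was made after the files had been seen, because dim spots carry a floor value set per array. The fit on all probes is given as an alternative. limma 3.58.1 was fitted to the 6 arrays together, with no covariate, and Benjamini-Hochberg adjustment ran over all tested probes. The scripts were tested on simulated data. The members and gene lists were chosen with earlier results of these data known. Genes named from the lists are those called with the widest rise or fall, at most 2 each way, close partners of the 10 genes, and the 2 targets. Some others are named for the values of a further probe, chosen after these were seen. Values of a few genes of the lists are not reported here.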

Additional observations from a re-analysis of the deposited data

How the results depend on the processing

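Calls are given for shGATA3 against control, shTCF1 against control and shGATA3 against shTCF1, first for the 10 genes and then for the 78. The reported counts were 3, 6 and 2, then 11, 14 and 6. Scaling to the 75th percentile gave 0, 1 and 0, then 3, 6 and 2. Quantile normalization gave 0, 3 and 0, then 6, 9 and 3. Normexp background correction with quantile normalization gave 1, 6 and 2, then 17, 21 and 10. The deposited value table, where limma called 0 of 31131 probes and 1814, 2653 and 1642 had an unadjusted p below 0.05, gave 0 throughout. Probes well above background on all arrays gave 2, 5 and 2, then 12, 15 and 6. Testing without a filter on dim probes gave 1, 5 and 1, then 9, 13 and 5. An intensity trend gave 3, 6 and 4, then 19, 17 and 10. Fits to the 4 arrays compared gave 2, 6 and 1, then 9, 19 and 5. VSN fitted on all probes, added after seeing the data, gave 0, 5 and 1, then 6, 9 and 4. That fit moved the median difference of all tested probes to -0.08, -0.14 and 0.05, and the calls higher from 1611 of 3537 to 638 of 2083 probes in shGATA3 and from 3239 of 7023 to 1439 of 6278 in shTCF1. With 1 array left out in turn, calls ranged from 0 to 2, 0 to 6 and 0 to 3, then 2 to 12, 3 to 19 and 2 to 8, a lone array being assumed to vary like the other groups.

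The replicate numbers did not pair the arrays (correlations of same-numbered deviations -0.04, -0.00 and 0.08), and the fit with the replicate block gave 2, 5 and 1, then 9, 14 and 5. Slide or scan as a block was not run, since all arrays carry 1 slide and 1 scan number.

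Signs changed as follows, and the causes were not tested. In shGATA3 the deposited value table gave XPO5 -0.388, TARBP2 -0.191, AGO1 -0.000606 and TNRC6A -0.258, VSN on all probes XPO5 -0.0711, TARBP2 -0.0562, AGO2 -0.0997 and TNRC6A -0.0864, and normexp AGO2 -0.00367. In shTCF1 the deposited value table gave XPO5 -0.208, DICER1 -0.0648, AGO1 -0.107, AGO2 0.391 and TNRC6A -0.0254, and VSN on all probes AGO1 -0.00636. The mean over probes gave XPO5 -0.185 in shGATA3, -0.22 in shTCF1 and 0.0349 between them. With 1 array left out, shGATA3 differences ranged from -0.155 to 0.00873 for DROSHA, -0.0264 to 0.0877 for XPO5, -0.205 to 0.0129 for DICER1, -0.0652 to 0.159 for TARBP2, -0.0734 to 0.0829 for AGO2 and -0.097 to 0.126 for TNRC6A, and that of AGO4 between the hairpin groups from -0.0835 to 0.359. Of these, AGO1 in shGATA3 and AGO2 in shTCF1 were called genes. Only 2 arrays per group limit the precision.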
